A study of Mus musculus with 6 samples.

Results

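The mitotic kinesins described here were 10 genes, Kif2c, Kif4, Kif11, Kif15, Kif18a, Kif18b, Kif20a, Kif20b, Kif22 and Kif23, taken by gene symbol from the 15973 protein-coding genes of the deposited table, and all 10 were among the 12572 genes abundant enough to test. RNA-Seq libraries came from 4T1-T cells, a vasculogenic mimicry-proficient sub-clone of the mouse mammary carcinoma line 4T1, so that all groups were 1 clonal line and did not differ by any introduced gene or knockdown. Cells in culture were starved of serum overnight, given Alexa-488 labelled acetylated low-density lipoprotein (acLDL) at 10 µg/mL for 4 h and returned to complete medium for 1 h. They were then sorted by fluorescence, the brightest 25% as acLDL-high and the dimmest 25% as acLDL-low. The experiment was done on 3 separate occasions, giving 3 acLDL-high and 3 acLDL-low libraries paired by occasion, and the comparison asked which genes differ between cells that take up much or little acLDL.

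Kinesins are motor proteins that use ATP to walk along microtubules or to take their ends apart. Most of them carry vesicles, organelles and ciliary cargo in interphase, whereas the mitotic members build the spindle, move and align chromosomes and organise the midzone where the cell is cut into daughters. Transcripts of many mitotic genes are low after division and accumulate towards G2 and mitosis. Their promoters often hold a cell cycle genes homology region (CHR), an element bound by the DREAM and MYB-MuvB complexes, downstream of CCAAT boxes bound by the factor NF-Y.

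Promoter sequences from RefSeq (GRCm38.p6, 250 bases before to 50 after the start) were matched to 9 of the 10 members, all but Kif20a. The letters of the CHR core, TTTGAA, stood on either strand in 8 of the 9 windows, 88.9%, against 17.9% of the 32851 promoters of the table and 11.8% of the 12601 promoters of genes tested. In 7 of the 9, 77.8%, the whole match lay within 30 bases of the start. A match with at least 1 base within that distance was found in 3.44% of all promoters and 2.08% of those of genes tested. The distance was chosen after the positions had been seen. These matches are descriptions of letters and not of binding.

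Windows of 3 called genes with the match close to the start are shown first, and that of Kif4, also called, follows below. Matches to the CHR core and to the CCAAT box (CCAAT) on either strand are in capitals. A match on the other strand reads TTCAAA or ATTGG. Kif11 is at chr19:37376312-37376402 on the forward strand, Kif23 at chr9:61946770-61946869 and Kif18b at chr11:102925095-102925194, both on the reverse strand, and each is printed 5′ to 3′ along its gene.
Kif11: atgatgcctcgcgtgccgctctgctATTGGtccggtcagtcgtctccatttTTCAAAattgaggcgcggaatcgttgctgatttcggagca
Kif23: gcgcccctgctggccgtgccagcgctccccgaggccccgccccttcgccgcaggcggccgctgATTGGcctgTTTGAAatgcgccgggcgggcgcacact
Kif18b: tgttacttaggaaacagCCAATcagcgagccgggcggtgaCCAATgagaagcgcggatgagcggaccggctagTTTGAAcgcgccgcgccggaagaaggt
Counting the first transcribed base as 0, the CHR core began at -19 in Kif11, at 2 in Kif23 and at 3 in Kif18b. A CCAAT box lay upstream of it in all 3, and Kif18b had a pair of them.

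Kif4, the fourth called gene, held both matches within 30 bases, at chrX:100626060-100626089 on the forward strand, and Kif22 held a CHR core at chr7:127042425-127042454 on the reverse strand.
Kif4: ATTGGctggcgcctctgggatcaaTTTGAA
Kif22: aggcggggccccggtaaTTCAAAagagaga
Kif20b, at chr19:34922288-34922387 on the forward strand, carried the CHR core in tandem and no CCAAT box in its window.
Kif20b: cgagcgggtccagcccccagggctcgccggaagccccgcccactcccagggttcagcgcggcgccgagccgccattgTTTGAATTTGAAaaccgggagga

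Kif15, Kif18a and Kif2c departed from this arrangement, and for them the capitals also mark the letters of an E2F site, TTTGGCGC, on either strand. They lie at chr9:122951011-122951075 and chr2:109280668-109280767 on the forward strand and at chr4:117178743-117178892 on the reverse strand.
Kif15: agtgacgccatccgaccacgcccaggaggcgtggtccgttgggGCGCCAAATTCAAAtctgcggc
Kif18a: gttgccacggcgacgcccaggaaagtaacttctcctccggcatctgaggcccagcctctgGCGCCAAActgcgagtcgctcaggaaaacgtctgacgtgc
Kif2c: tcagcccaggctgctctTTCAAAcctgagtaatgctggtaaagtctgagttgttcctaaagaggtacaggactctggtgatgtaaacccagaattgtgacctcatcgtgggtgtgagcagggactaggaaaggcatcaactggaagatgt
In Kif15 the E2F letters ran without overlap into the CHR core. Kif18a held the E2F letters alone and was the only one of the 9 without a CHR core. In Kif2c the core began farther from the start, at -103. The RefSeq starts of Kif2c, Kif4, Kif15 and Kif22 lie inside the span of the gene in the GENCODE annotation. The E2F letters were found in 0.514% of all promoters, and CCAAT boxes in 5 of the 9 members and 37.4% of all promoters. Among other gene lists, the CHR core lay at least in part within 30 bases of the start in 11 of 17 promoters of G2/M markers, 6 of 14 of partners of the mitotic kinesins and 1 of 17 of S phase markers. The same held for 1 of 6 of other mitotic motors, 3 of 20 of transcription factors listed for the G2/M programme and 1 of 22 of kinesins of interphase transport and cilia.

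**Figure D1:**
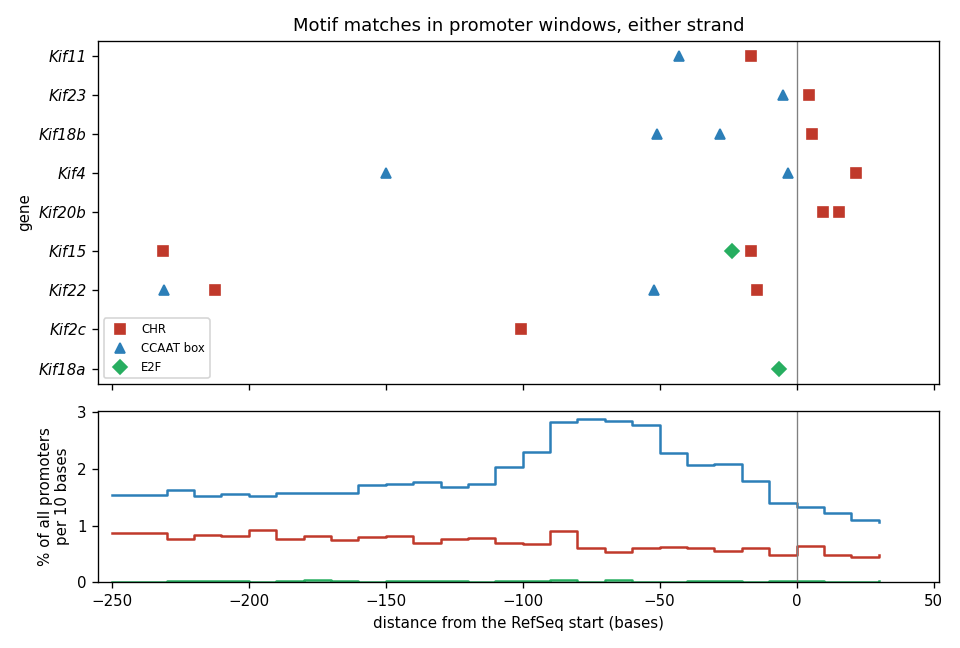
Positions of motif matches on either strand in 9 promoter windows, in bases from the RefSeq start at 0 (upper panel; squares CHR core, triangles CCAAT box, diamonds E2F), above the share of all 32851 promoters holding a match that begins in each stretch of 10 bases (lower panel, %). In 7 of 9 genes a square lies within 30 bases of the start, where the background line of the CHR core is nearly level.

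The libraries held 70263372 to 94216786 counts, 98.4% to 98.7% of them in protein-coding genes, and a member had 1248 to 16002 counts in a library. A count of 3, taken as the floor, was worth 0.0318 to 0.0427 CPM, far under every member's level, and such limits cover counting error only. Values are CPM, counts relative to the library total, after scaling by the trimmed mean of M values (TMM), and fold changes, standard errors (SE) and p-values adjusted over all genes tested are from the quasi-likelihood test of edgeR with the occasion as a block. Of the epithelial tumour cell markers, Krt8, Krt18 and Cdh1 were each at group means from 811 to 1132 CPM, and Epcam and Krt14 at 88.1 to 182 CPM. The leukocyte and endothelial genes Csf1r, Itgam, Lyz2, Kdr and Tek had at most 4 counts in any library, and Ptprc, Vwf, Pecam1 and Cdh5 at most 30. Others of these lists were detected, Cd68 at 517 to 812 counts, Cd14 at 637 to 1302, Mrc1 at 114 to 228 and Tie1 at 65 to 164. Krt5, Adgre1, Emcn and the fibroblast marker Lum were absent from the deposited table. Summed levels of the 4 macrophage and leukocyte markers that could be tested were 19.2 to 21.5 CPM in acLDL-low and 20.1 to 24.4 CPM in acLDL-high cells. Of these 4, Cd14 was called higher, at 0.32 on the log2 scale (edgeR adjusted p = 0.0246), and was not called without replicate 1 or 3. Its part in the results below was not tested. The 3 endothelial markers that could be tested summed to 1.44 to 2.51 and 1.399 to 2.27 CPM. Pdgfra, the only fibroblast marker tested, was at 34.9 and 37.1 CPM on average, with no call in either list. The fibroblast markers Pdgfrb and Dcn had at most 2 and 18 counts in any library.

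Kif4, Kif11, Kif18b and Kif23 were called higher in acLDL-high cells and no member was called lower. These were 4 of 10, against 3.43% of all genes tested called higher, 1.32% called lower and 4.75% called either way. The 10 genes and the lists below were chosen with earlier results of these data known, so such counts are descriptions only. All 10 log2 fold changes were above 0, from 0.16 for Kif15, a 1.12-fold higher level, to 0.38 for Kif11, a 1.304-fold higher level. Their median was 0.21, beside 0.00 over all genes tested. The differences were small and uneven over the occasions, with a median over members of 0.03 on occasion 1, 0.38 on occasion 2 and 0.24 on occasion 3, and 7 members were higher in all 3 pairs, against 20.9% of all genes. Without replicate 3 none of the 10 was called (0.902% of genes higher), 6 of them being under 0.05 unadjusted with a smallest edgeR adjusted p of 0.0674. Their fold changes were then 0.35 for Kif11, 0.28 for Kif18b, 0.27 for Kif23 and 0.18 for Kif4, and the median of the 10 was 0.19. Without replicate 2 the count was 4 (4.82% of genes higher), without replicate 1 it was 10 (3.55%), and with no filter on low counts it was 9 (4.19%). Without the block by occasion edgeR called none of 12329 genes, 45 being under 0.05 unadjusted, and that fit also recovered none of the genes changed in simulated data. In a bulk sample, more cells in mitosis and more of these transcripts in each such cell cannot be told apart.

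**Figure D2:**
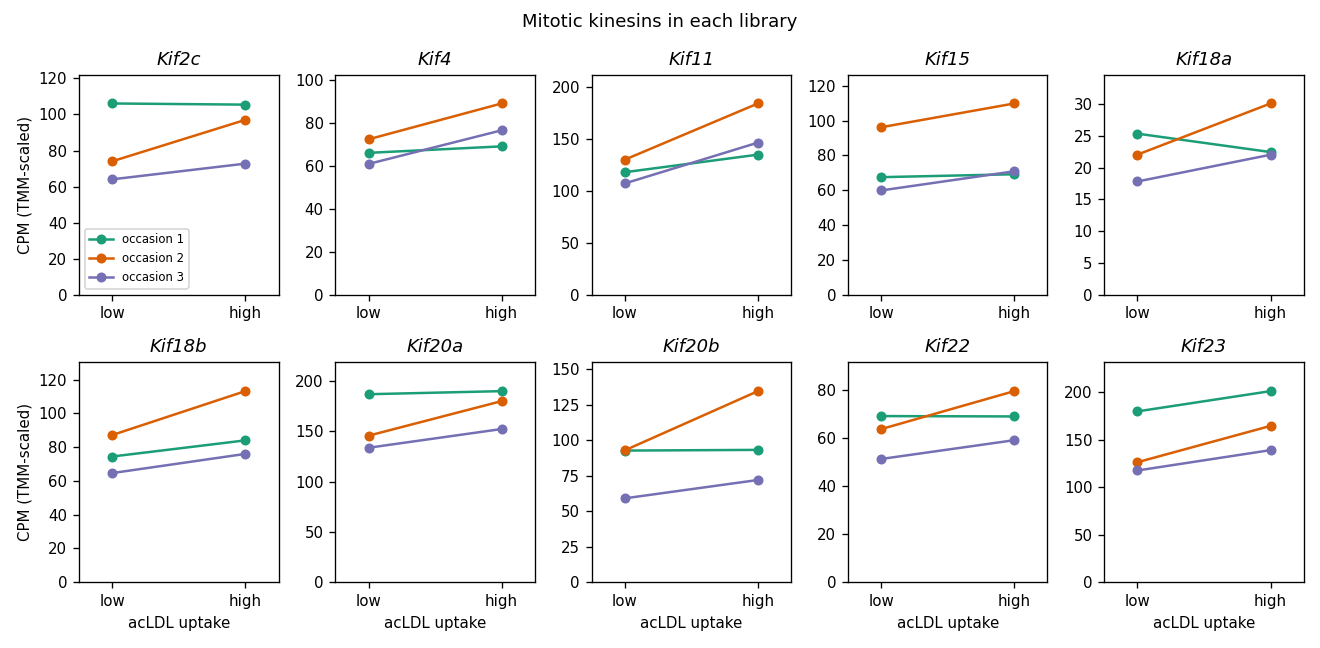
Level of each mitotic kinesin in CPM (vertical axes from 0) in the acLDL-low and acLDL-high library of each occasion, joined by a line per occasion. Only Kif11 has its lowest acLDL-high value, 135 CPM, above its highest acLDL-low value, 130.1 CPM; the lines of occasion 1 are the flattest or fall for most genes.

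Spindle bipolarity is set up by Kif11 (Eg5), a tetrameric motor that slides antiparallel microtubules apart, with Kif15 as a motor that can help to hold the poles apart. Kif11 (chr19:37376403-37421859, forward strand) was at 118, 130.1 and 107 CPM in acLDL-low libraries 1 to 3 and at 135, 184 and 147 CPM in the acLDL-high libraries of the same occasions. Its groups did not overlap, which held for 1 member of 10 and for 1.23% of all genes in this direction. Kif11 rose by a log2 fold change of 0.38 (SE 0.06, edgeR adjusted p = 0.00187), with pair differences of 0.19, 0.50 and 0.45. Kif15 (chr9:122951046-123018733, forward strand) was at 67.5, 96.1 and 59.8 CPM in acLDL-low and 69.1, 109.8 and 70.8 CPM in acLDL-high cells. Each acLDL-high library was above its own partner, but occasion 2 stood above the other two in both groups, and the difference of 0.16 (SE 0.05) did not pass (edgeR adjusted p = 0.0899). Within each library the Kif11 to Kif15 ratio, per length of exon, averaged 2.41 in acLDL-low and 2.81 in acLDL-high cells and was higher in 3 of 3 pairs, by 0.23 ± 0.08 (SD, n = 3) on the log2 scale. An exact sign-flip test of 3 pairs, two-sided, cannot go below p = 0.25, the value it gave here.

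Chromosome arms are bound by the chromokinesins Kif4, which also works with Prc1 to shape the anaphase midzone, and Kif22 (Kid), which pushes arms away from the poles. Kif4 (chrX:100625737-100727214, forward strand) was at 66.2, 72.5 and 61.0 CPM in acLDL-low and 69.2, 89.2 and 76.7 CPM in acLDL-high cells. The acLDL-high value of occasion 1 fell inside the acLDL-low range, and the other 2 lay above it. Kif4 rose by 0.23 (SE 0.05, edgeR adjusted p = 0.0271). Its exons share 832 bp, 15.1% of their length, with Pdzd11 on the opposite strand, a gene at 0.16 (edgeR adjusted p = 0.114), and the strand setting of the counting was not given in the sources used here. Kif22 (chr7:127027729-127042471, reverse strand) was at 69.3, 63.8 and 51.4 CPM in acLDL-low and 69.1, 79.7 and 59.2 CPM in acLDL-high cells. Its pair differences were -0.0031, 0.32 and 0.20, and its fold change of 0.17 (SE 0.06) did not pass (edgeR adjusted p = 0.110). Reads on a processed copy of Kif4 came to at most 2 counts in a library, 0.0363% of those on Kif4, and the copy of Kif22 had none.

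Microtubule ends are taken apart by Kif2c (MCAK), a depolymerase of centromeres that corrects wrong attachments, and are controlled by Kif18a, which damps chromosome movements at kinetochores, and Kif18b, which acts on astral microtubules. Kif18b (chr11:102905529-102925124, reverse strand) was at 74.4, 87.1 and 64.6 CPM in acLDL-low and 84.0, 113 and 76.0 CPM in acLDL-high cells. It was higher in every pair although the groups overlapped, and rose by 0.26 (SE 0.05, edgeR adjusted p = 0.00809). Kif18a (chr2:109280738-109341747, forward strand) was at 25.4, 22.1 and 17.8 CPM in acLDL-low and 22.5, 30.1 and 22.0 CPM in acLDL-high cells. It was the least abundant member, and its pair differences of -0.18, 0.45 and 0.31 had the widest spread of the 10. Its fold change of 0.19 had the largest SE of the members, 0.09, and did not pass (edgeR adjusted p = 0.274). Kif2c (chr4:117159639-117182639, reverse strand) was at 106, 74.0 and 64.0 CPM in acLDL-low and 105.5, 97.0 and 72.7 CPM in acLDL-high cells. Its libraries of occasion 1 were alike and the highest in both groups, and the difference of 0.19 (SE 0.06) did not pass (edgeR adjusted p = 0.114).

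The central spindle and cytokinesis depend on Kif23 (MKLP1), which forms centralspindlin with Racgap1, on Kif20a (MKLP2), which takes the chromosomal passenger complex to the midzone, and on Kif20b (MPP1), a motor of late cytokinesis. Kif23 (chr9:61915905-61946774, reverse strand) was at 179.8, 126 and 118 CPM in acLDL-low and 201, 165 and 139 CPM in acLDL-high cells. Each acLDL-high library exceeded its partner, by 0.16, 0.38 and 0.24, and Kif23 rose by 0.26 (SE 0.05, edgeR adjusted p = 0.00809). Kif20a (chr18:34624613-34633277, forward strand) was at 187, 146 and 134 CPM in acLDL-low and 189.9, 180.0 and 152 CPM in acLDL-high cells. Its difference of 0.17 (SE 0.05) did not pass (edgeR adjusted p = 0.0817). Its exons share 1271 bp, 29.3% of their length, with Cdc23 on the opposite strand, which was at -0.02 (edgeR adjusted p = 0.900). Kif20b (chr19:34922361-34975745, forward strand) was at 92.6, 92.8 and 59.1 CPM in acLDL-low and 93.1, 134 and 72.0 CPM in acLDL-high cells. The pair of occasion 1 was level, at 0.0076, and that of occasion 2 differed by 0.53, the widest single difference of the 10 genes. At 0.28 (SE 0.07) its fold change was second only to that of Kif11, and its adjusted p from edgeR, 0.0501, was just outside the threshold of 0.05.

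**Figure D3:**
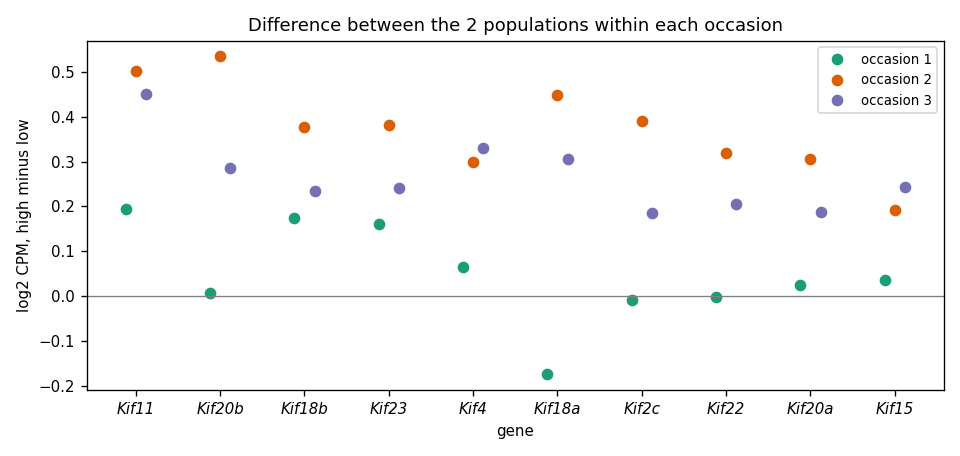
Difference in log2 CPM, acLDL-high minus acLDL-low, within each of the 3 occasions (1 point per occasion), for the 10 genes ordered by fitted fold change. Every point of occasions 2 and 3 is above 0, from 0.18 to 0.53, while those of occasion 1 run from -0.18 to 0.19.

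Of 14 partners and regulators of these motors, 11 were called higher, against 3.43% of all genes tested, and none lower (median 0.27). Without replicate 3 the count was 3, with 0.902% of genes called higher. Prc1, the midzone bundler that Kif4 binds, was at 0.45 (SE 0.05), and Cdk1, the kinase of mitotic entry, at 0.43 (SE 0.04). Nusap1, a spindle microtubule binder, was at 0.52 (SE 0.08). Aurka and Aurkb, kinases of the poles and of the centromere and midzone, were at 0.34 and 0.33. Racgap1 and Ect2, which act with Kif23 in cytokinesis, were at 0.17 and 0.23, and Incenp, Birc5, Plk1 and Gtse1 were also called, at 0.22 to 0.30. Tpx2, Cdca8 and Kifbp did not pass, at 0.23, 0.14 and -0.07. The ratio of Kif4 to Prc1 within a library, per length of exon, was lower in acLDL-high cells in 3 of 3 pairs, by -0.22, -0.26 and -0.17 on the log2 scale. That of Kif23 to Racgap1 differed by 0.08, 0.15 and 0.05, and that of Kif2c to Gtse1 by -0.21, -0.10 and -0.02. Apart from Kif11 to Kif15, given above, ratios between related members had no common sign over the pairs. They were 0.35, -0.07 and -0.07 for Kif18b to Kif18a and 0.02, -0.23 and -0.10 for Kif20a to Kif20b. In none of the 6 ratios could the exact sign-flip test of 3 pairs go below 0.25.

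Of 20 G2/M markers that are not motors, 14 were called higher, against 3.43% of all genes tested, and none lower (median 0.23). Without replicate 3 the count was 3, with 0.902% of genes called higher. Those called with all replicates included Ube2c at 0.56, Ccnb1 at 0.49, Top2a at 0.45 and Ccna2 at 0.31. Cdc20, Mki67, Ccnb2, Cdc25c, Bub1b and Dlgap5 did not pass, at 0.06 to 0.19. The median of all 20 within pairs was 0.11, 0.36 and 0.28, smallest on occasion 1 as for the kinesins. Set against that median in each pair, Kif11 was above it in 3 of 3 pairs, by 0.13 ± 0.04 (SD, n = 3). Kif15, Kif20a and Kif22 were below it in all 3 pairs, by -0.09, -0.08 and -0.08 on average. The other 6 members lay on both sides of it. Of 20 S phase markers, none was called higher and 1 lower, Cdt1 at -0.19, against 3.43% and 1.32% of all genes tested. Their median was -0.02 and their pair medians 0.20, -0.22 and -0.03. These counts turned with single pairs and with the processing. Without replicate 1, 5 were called lower, with 646 of 12316 genes called either way, 437 of them higher. Without replicate 2, 3 were called higher (4.82% of genes higher) and none lower, and without replicate 3 none was called either way. With no filter on low counts, 2 S phase markers were called higher (4.19% of genes higher). With the GC correction, or with non-coding genes included, no S phase marker was called lower. The 16 transcription factors listed for the G2/M programme had a median of -0.01. They included E2f1, E2f2, E2f3, E2f4, E2f7 and E2f8, so the list was not of G2/M activators alone. Lin54, a DREAM subunit that contacts the CHR, was called higher at 0.19 and E2f2 was called lower at -0.34. That was 1 of 16 in each direction, against 3.43% of all genes tested called higher and 1.32% called lower. No factor was called higher with DESeq2 or without replicate 2 or 3, and the count called lower was 0 without replicate 3 and 2 without replicate 1. Foxm1 and Mybl2, activators of late cell cycle genes, did not pass, at 0.09 (edgeR adjusted p = 0.249) and 0.05 (edgeR adjusted p = 0.608).

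Other motors of mitosis outside the 10 gave 1 call of 4 tested, against 3.43% of all genes tested called higher. Kif14, which works with citron kinase at the midbody, rose by 0.35 (SE 0.08, edgeR adjusted p = 0.0263). No motor of this list was called with DESeq2 or without replicate 3, and 3 were without replicate 1 (3.55% of genes higher). Kifc1, a minus-end motor that clusters poles, was at 0.16, Cenpe, a kinetochore motor, at 0.15 and Kif2a, a depolymerase of spindle poles, at -0.04, none of which passed. Kinesins of interphase transport and cilia gave no call among 21 tested in edgeR (median 0.01, 11 of 21 above 0, pair medians -0.01, 0.05 and -0.01). Without replicate 2, 1 of these kinesins was called lower, with 869 of 12478 genes called either way, 602 of those genes higher. Their most abundant members per length, Kif5b, a carrier of vesicles and mitochondria, and Kif1c were at 0.03 (SE 0.04) and 0.01 (SE 0.04). The widest estimates, 0.52 for Kif26b and -0.51 for Kif17, came from genes with 18 to 60 and 56 to 108 counts in a library. No test of the difference between the mitotic and the interphase kinesins was made.

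**Figure D4:**
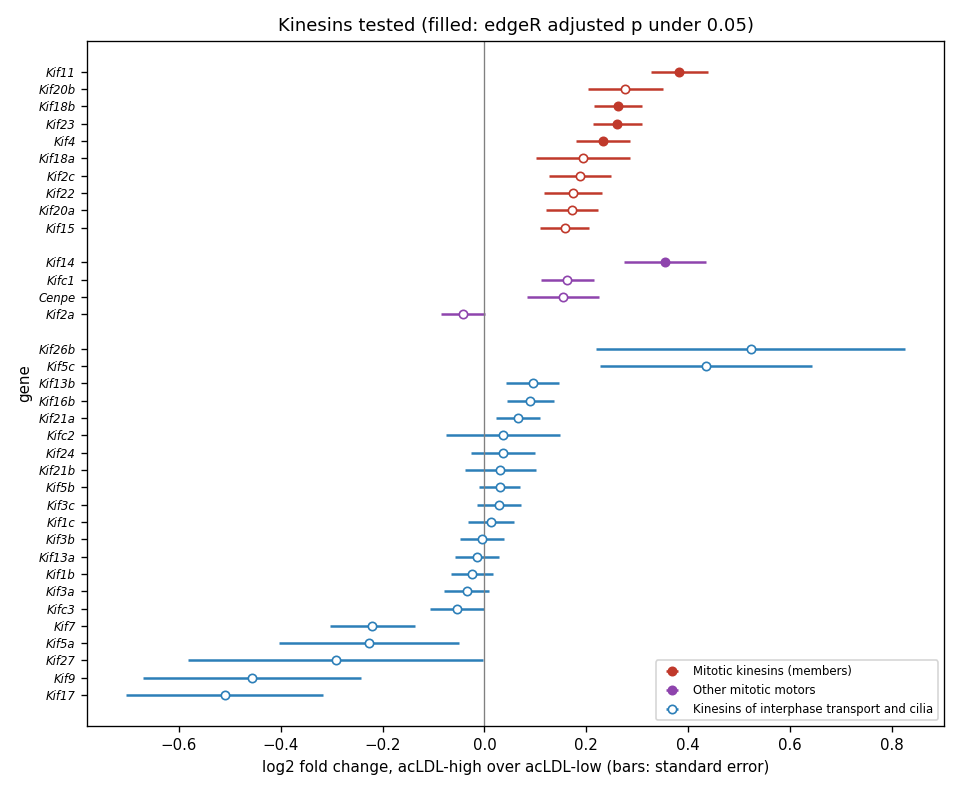
Log2 fold change of acLDL-high over acLDL-low cells (points) with its standard error (bars) for 35 kinesins tested, filled where the adjusted p of edgeR was under 0.05. All 10 mitotic members lie right of 0, from 0.16 to 0.38, and the interphase kinesins lie on both sides of it, from -0.51 to 0.52, with none filled.

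Tested over the 3 occasions at a given uptake, all 10 differed (edgeR adjusted p from 5.95e-07 for Kif15 to 0.0207 for Kif18a), as did 78% of all genes. The range over occasions was 0.25 to 0.78 in log2 CPM, with a median of 0.45, as over all genes, and it exceeded the uptake fold change in 9 of 10 members, Kif11 being the exception at 0.31 against 0.38. Over all genes tested, this held for 95.4%. Kif2c, Kif20a and Kif23 were highest on occasion 1, and the other 7 on occasion 2, where 39.8% of all genes were highest. In 9 members occasion 3 was lowest, against 31.6% of all genes. Summed over the 10, the level was 986, 911 and 736 CPM in acLDL-low and 1039, 1182 and 887 CPM in acLDL-high cells, so that the acLDL-high sum of occasion 3 was under the acLDL-low sums of occasions 1 and 2.

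Over the 6 libraries Kif2c correlated with Kif20a at r = 0.99 and with Kif23 at r = 0.96, and Kif4 with Kif11 at r = 0.98, whereas Kif15 and Kif23 were at r = 0.03. Not every member divided by the occasion of their highest level, since Kif22, highest on occasion 2, correlated with Kif2c and Kif20a at r = 0.84 and with Kif4 at r = 0.70. These are descriptions over 6 libraries that share the 3 occasions. The 5 other genes with profiles nearest to the mean of the members, among 10528 compared, were Knl1 (r = 0.997), a kinetochore scaffold, Mbd1 (r = 0.986), Ska2 (r = 0.979), a kinetochore subunit, Ccna2 (r = 0.977) and Incenp (r = 0.977).

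**Figure D5:**
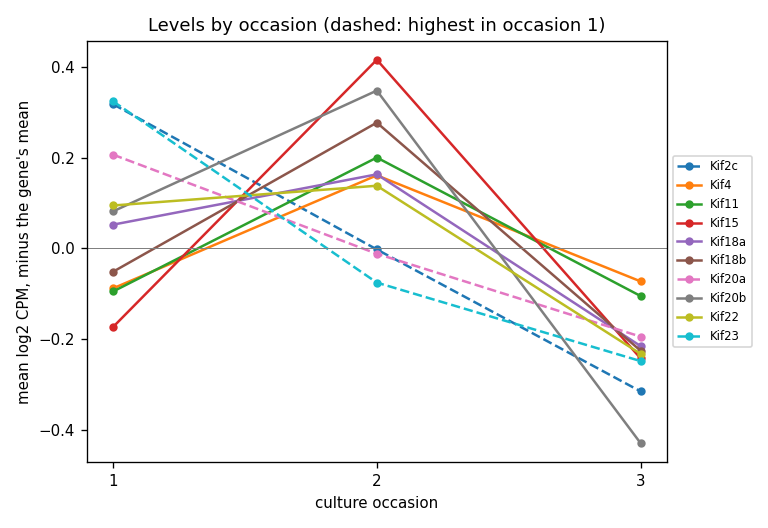
Mean log2 CPM of the acLDL-low and acLDL-high library of each occasion, minus the gene's mean over occasions, for the 10 members; occasion numbers carry no order and lines only join the values of a gene. Kif2c, Kif20a and Kif23 (dashed) peak on occasion 1 and the other 7 on occasion 2, with ranges from 0.25 to 0.78.

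Per length of exon, the mean level over the 6 libraries ran from 38.0 ± 5.50 CPM per kilobase (RPKM; SD, n = 6) for Kif20a through 23.3 for Kif18b, 19.8 for Kif2c, 19.6 for Kif23, 18.3 for Kif11, 13.3 for Kif22, 13.1 for Kif4 and slightly less for Kif20b to 7.16 for Kif15 and 2.37 for Kif18a. Kif20a was above Kif18b, Kif11 above Kif22, Kif20b above Kif15 and Kif15 above Kif18a in 6 of 6 libraries. The other neighbours in this order changed places between libraries. Lengths were those of all annotated exons joined, and with the longest transcript instead Kif23 (45.5 CPM per kilobase) and Kif20a (44.8) came first and Kif18b fell below Kif2c and Kif11. Kif18a, at 3.58 CPM per kilobase, was last by both lengths.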

How the data were processed

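Polyadenylated RNA from 6 sorted cell populations was sequenced by the study as 2 × 50 bp reads from a stranded library kit. Per the labels, the authors used STAR 2.5.2a, featureCounts 1.4.3-p1, build mm10 and DESeq2 1.20.0, and deposited raw read counts per gene for 53379 genes. The annotation release and the strand setting are not given in the sources used here. The authors' comparison table (means, fold changes, p-values) served only for its gene IDs and symbols, which restricted testing to protein-coding genes.

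Counts were tested with edgeR 4.0.16 (R 4.3.3; limma 3.58.1): TMM scaling, its default filter on low counts, and a quasi-likelihood F test with replicate number as a block, as the study's methods enter replicate information. SE is the fold change divided by the root of F. P-values were adjusted by Benjamini-Hochberg over 12572 genes, threshold 0.05. The numbers pair the samples by occasion, per the series description; deviations from group means correlated at 0.795 to 0.846 within numbers and at most -0.0882 between them. Nothing says how independent the cultures of the occasions were otherwise. With the block, p-values measure how the differences between acLDL-high and acLDL-low spread over these occasions, not the spread between unpaired samples. No 2 libraries agreed within sampling noise (chi-square per degree of freedom at least 21.4). CPM used a prior count of 2 on the log scale. On data simulated for this comparison, 12475 genes were tested, and 80 of 100 changed by 0.3 (log2) and 96 of 100 changed by 1 were recovered. Beside these true calls there were 18 false calls, a larger share of all calls than the threshold of 0.05. The fit without the block recovered 0 of 100 at either fold.

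Positions, exon lengths and GC content came from GENCODE M21 (GRCm38), where 53274 gene IDs matched, and promoters from RefSeq. The named genes were all members, genes called in each list, and any motor, partner or factor with its value. Of the G2/M markers only some of those called were named, with those not called. Also named were the 5 most correlated genes with an average log2 CPM of at least 1. Members and lists were chosen with earlier results of these data known. Alternatives were no block, DESeq2 1.42.0 or its size factors, no filter, a minimum of 10 counts per library, non-coding genes included, a GC correction, a threshold of 0.01 and each replicate left out.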

Additional observations from a re-analysis of the deposited data

Results flagged for a closer look

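Kif2c, Kif18a and Kif22 were lower in acLDL-high than in acLDL-low cells on occasion 1, by log2 differences of -0.0088, -0.18 and -0.0031, and higher on occasions 2 and 3. Each occasion has 1 pair of libraries, so this difference between occasions was not tested. With 3 libraries a group, no search for single outlying libraries was made.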

How the results depend on the processing

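All 10 kinesins kept a log2 fold change above 0 under every alternative run, and their median ranged from 0.14 without replicate 2 to 0.31 without replicate 1. The count of members called was 9 with no filter on low counts and ranged from 0 to 10 when 1 replicate pair was left out (0 without replicate 3, 4 without replicate 2, 10 without replicate 1). It was 3 to 5 under the other settings with the block: Kif20b was also called with DESeq2 size factors (adjusted p = 0.0397) and not with DESeq2's own test (adjusted p = 0.515). Over all genes, 597 calls became 199 at a threshold of 0.01, 932 with no filter, and 126 to 869 with a replicate pair left out. Without the replicate block, 0 genes and 0 members were called, 45 genes and 1 member being under 0.05 unadjusted, at a members' median of 0.22; in the simulation this fit recovered 0 of 100 genes at either fold, so its count says little about the members. Of the settings run for the test of occasions, which were neither the GC correction nor the fit without the block, all 10 members differed in each but a threshold of 0.01 (9) and the omission of replicate 2 or 3 (7 each). Partners and G2/M markers called fell to 3 each without replicate 3 and 0 without the block. The cause of these shifts was not tested. Each member had at least 1248 counts in every library.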
